A study of Danio rerio with 25 samples.

Results

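The transcripts described here are 150 whose level relative to control in zebrafish embryos was higher at each successive citalopram concentration. They were taken from 32963 transcripts listed in any of the deposited tables. Citalopram blocks the serotonin transporter, which clears released serotonin back into nerve endings, and is prescribed as an antidepressant. Serotonin acts early in vertebrate development as a signal between cells and later as a neurotransmitter, so drugs on this transporter can reach embryos before their synapses have matured. A stepwise rise over concentrations is one of the shapes a dose response can take, and others peak or dip between the lowest and the highest dose.

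RNA was measured in 25 libraries of wild-type (WT) embryos at 48 hours post-fertilization (hpf). The 5 groups were untreated control embryos and embryos kept in citalopram hydrobromide from the first hours after fertilization until 24 hpf. The citalopram embryos were then washed and raised without drug. The labels put the start of exposure slightly earlier than the study's methods do. The lowest dose was 0.03 μg/L, the second 0.9 μg/L, the third 50 μg/L and the highest 250 μg/L, and values in order of dose follow this sequence. Each group had 5 libraries, and each library was made from 50 pooled whole embryos, so tissues and single animals were not resolved. The labels also carry a treatment text that names other drugs, while sample titles and treatment fields name citalopram. The deposited tables compare each dose with the same control libraries and give the authors' mean normalized count of each group per transcript, with no values of single libraries. The standard errors and p-values of the authors' comparison were not used. The spread between replicates is therefore not given here, no difference below was tested, and every value is a description of group means. In whole embryos, fewer cells of a type and less RNA per cell cannot be told apart.

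Members were chosen by the values described here. For each transcript the log2 ratio of the citalopram mean to the control mean was taken at each dose. Of the 30242 transcripts listed at all 4 doses, 22957 had every group mean at 50 normalized counts or more and were eligible. The ratio increased from each dose to the next for 722 of them, which is 3.15% of the eligible transcripts. A ratio of at least 0.2 at the highest dose was found for 173 of the 722, or 0.754% of those eligible. The 150 with the largest difference between the ratios at the highest and the second dose were kept, and the other 23 were left out.

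Rising with every dose was not the usual pattern. All 24 possible orders of the 4 doses occurred among the eligible transcripts, and the rising order was in the twelfth place by frequency. The most frequent order had its lowest ratio at 0.9 μg/L and its highest at 0.03 μg/L, with 2401 transcripts (10.5%). The reverse of the rising order was found for 821 transcripts (3.58%). The lowest dose gave the highest or the lowest of the 4 ratios in 76.9% of eligible transcripts, compared with 48.3% for the second dose and 49.8% for the third. This share was smallest for the highest dose, well below that of each of the others, so 250 μg/L most often lay between other doses. A ratio of at least 0.2 at the highest dose was found for 2683 eligible transcripts (11.7%), and 6.45% of these were stepwise. The other 2510 had a median ratio of 0.29 at the highest and 0.42 at the lowest dose, and 60.3% of them were higher at the lowest dose than at the highest.

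**Figure D1:**
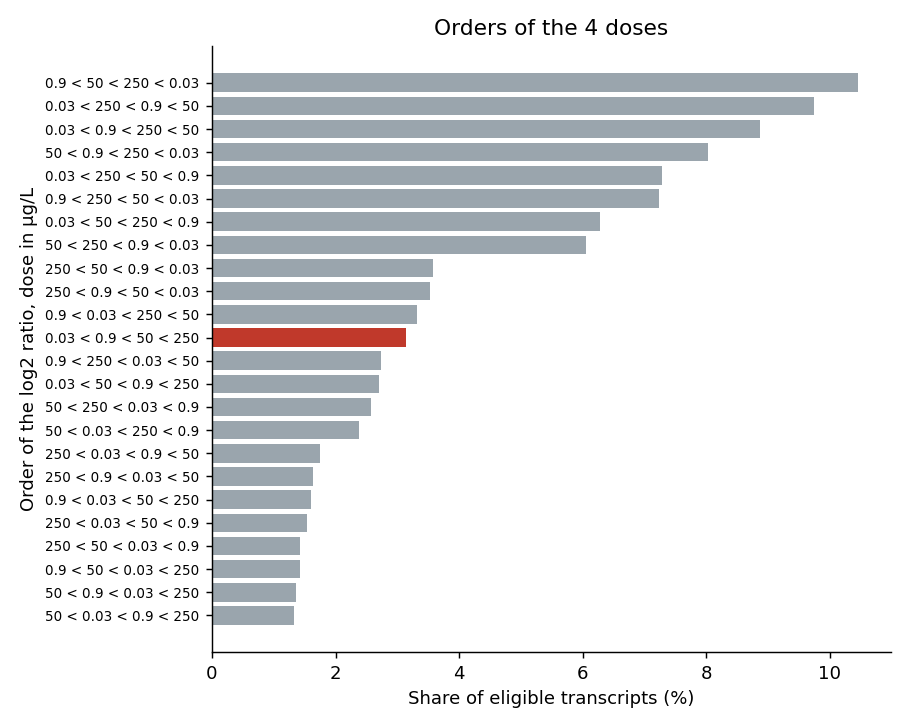
Share of the 22957 eligible transcripts (horizontal axis, percent) with each order of the 4 doses by the log2 ratio of citalopram to control mean (vertical axis, dose with the lowest ratio first). The red bar is the rising order, which held 722 transcripts and 3.15%.

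The typical member was close to control at the lowest dose and moderately above it at the highest. In order of dose, the median log2 ratio over the 150 was -0.051, 0.096, 0.21 and 0.29, and the last of these is a median of 1.22-fold. Over all eligible transcripts the medians were 0.0060, 0.00071, 0.022 and 0.0078. The members' ratios lay between -0.94 and 0.45 at the lowest dose and between -0.42 and 0.55 at the second. They lay between -0.30 and 0.82 at the third dose and between 0.20 and 1.17 at the highest. These ranges overlap widely, and the order of the doses that all members share was set by the rule. The interquartile range of the members' ratios was 0.27 at the lowest dose and from 0.14 to 0.15 at the 3 higher doses. All eligible transcripts were also most spread at the lowest dose, with an interquartile range of 0.40, compared with 0.14, 0.23 and 0.20 at the others in order.

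**Figure D2:**
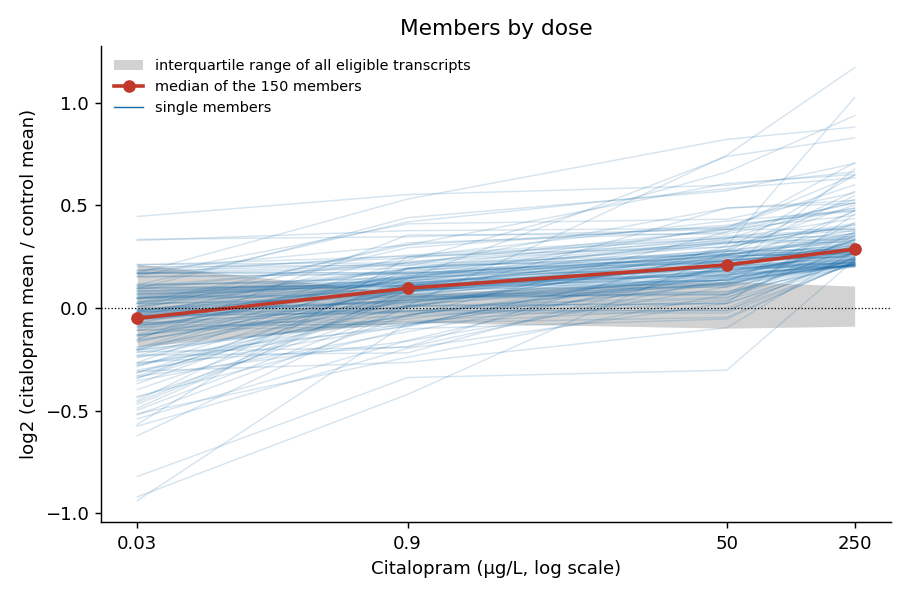
The log2 ratio of citalopram to control mean (vertical axis) at each dose (horizontal axis, μg/L, log scale). Thin lines are the 150 members, the red line is their median from -0.051 at the lowest to 0.29 at the highest dose, and the grey band is the interquartile range of all 22957 eligible transcripts.

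The members' RNA was a small part of the whole. Their summed means made up 0.138% of the control sum in each of the 4 tables. In citalopram embryos the share was 0.128%, 0.148%, 0.157% and 0.173% in order of dose. Relative to control in the same table, the summed normalized counts differed by -4.38% at the lowest dose and by 6.5%, 16.0% and 24.8% at the others. The sum thus passed the control level between the lowest and the second dose, as the median did. These sums weight abundant transcripts most and were set within tables that the authors normalized separately.

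Members differed in the dose at which they first exceeded control. All 4 doses were above control for 54 members (36.0%), with median ratios of 0.092, 0.17, 0.26 and 0.33 in order of dose. In 65 members (43.3%) the mean was at or below control at the lowest dose and above it from the second, with medians of -0.13, 0.086, 0.21 and 0.28. Another 24 (16.0%) were above control from the third dose, with medians of -0.23 and -0.084 at both lower doses and 0.15 and 0.27 at both higher ones. The last 7 (4.67%) were above control only at 250 μg/L, where their ratios lay between 0.22 and 0.28. In a majority of members, therefore, the upward order included at least 1 dose with a mean no higher than control. At the lowest dose 50.8% of all eligible transcripts and 36.0% of members were above control, and at the second dose 50.3% and 79.3% were. The rule used these ratios, so the shares describe the selection.

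The 2 members with the largest difference between the highest and the second dose are identified by their Ensembl transcript IDs. ENSDART00000159915.2 had authors' deposited means of 161.7, 166.5, 238.4 and 385.3 normalized counts in order of dose. Its control mean was 189.4 to 194.4 over the 4 tables. Embryos of both lower doses were therefore below control, those of the third dose above it, and those of the highest at 2.03 times the control level. Its log2 ratios were -0.27, -0.19, 0.30 and 1.02. The final step, 0.72, was the largest step of any member between the third and the highest dose.

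ENSDART00000193833.1 was less abundant and had the highest ratio of all members at 250 μg/L. The authors' deposited means were 57.7, 76.6, 129.8 and 170.9 normalized counts in order of dose, with 75.9 to 78.1 in control. This transcript was below control at the lowest dose, level with it at the second and above it at both higher doses. Its log2 ratios were -0.44, 0.011, 0.74 and 1.17, and the last is a 2.25-fold difference from control. Its slope of 0.41 per log10 unit of dose was the steepest among members. No gene symbol was paired with either ID in the tables used here, and the same held for all 150 members (0 matched). Pathway and cell type lists could therefore not be counted among them.

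**Figure D3:**
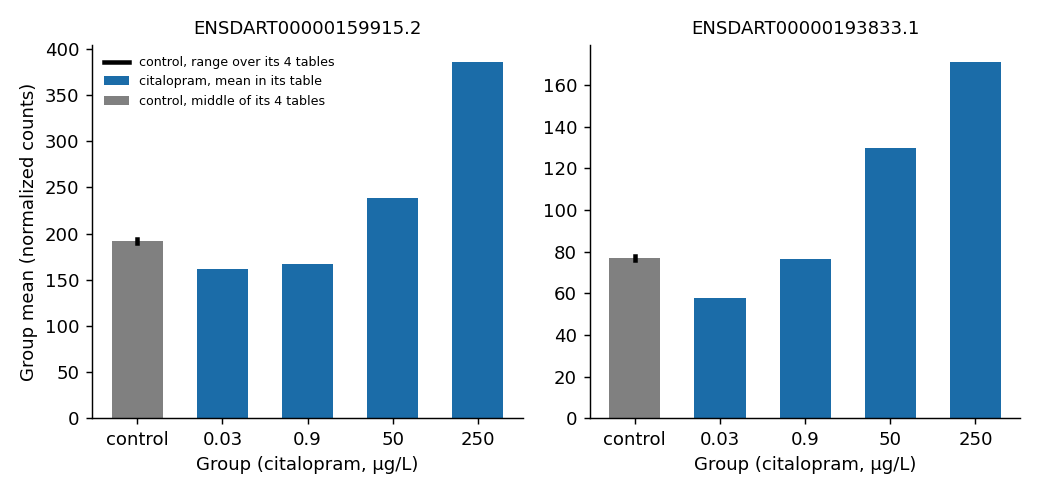
Group means in normalized counts (vertical axis) of the 2 members with the largest difference between the highest and the second dose, by group (horizontal axis). Blue bars are citalopram means, and the grey bar is the middle of the range that the same control libraries take in the 4 tables (black line). ENSDART00000159915.2 reached 385.3 and ENSDART00000193833.1 170.9 at the highest dose, and no spread between replicates is shown.

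Below these, differences became smaller quickly. The member in the third place had authors' means of 81.5, 112.3, 185.4 and 222.6 normalized counts in order of dose and 150.2 to 154.2 in control. It was the member furthest below control at the second dose, with a ratio of -0.42, and reached 0.57 at the highest, so most of its rise took place below the control level. The member in the fifth place was above control throughout, with ratios of 0.090, 0.23, 0.66 and 0.94. The difference between the highest and the second dose was at least 0.6 for 8 members and at least 0.3 for 38. Its median was 0.20, which corresponds to 1.15-fold between these doses. The rule ranked members by this difference, and the matching shares of all eligible transcripts were not counted. These counts and this median therefore describe the selection. The smallest differences inside the selection were 0.0859, 0.0857 and 0.0846, and the next outside it were 0.0815, 0.0814 and 0.0802. The lowest ratios among members at the highest dose were 0.2004, 0.2009 and 0.2021, and the stepwise transcripts next below the minimum had 0.1997, 0.1995 and 0.1982.

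The study applied a fold threshold of 0.6 on the log2 scale to its own fold changes, together with a limit on the adjusted p-value. Here the threshold was applied to ratios of group means alone, and few members reached it. At the highest dose 13 of the 150 did, where 1.07% of all eligible transcripts did. At the third dose 5 did, where the share of all eligible transcripts was 0.88%. At the second and the lowest dose 0 members reached it, with 0.409% and 6.21% of all eligible transcripts. The rule set a minimum at the highest dose and kept each lower dose below it, so nothing about the members can be read from these shares.

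The size of the steps varied between members. The rule fixed the direction of each step and ranked members by the sum of the last 2 steps, so the counts of steps describe the selection. The step from the lowest to the second dose was the largest of the 3 in 61 members (40.7%), the step to the third in 52 (34.7%) and the step to the highest in 37 (24.7%). Median steps were 0.14, 0.10 and 0.087 in the same order, and the largest were 0.86, 0.73 and 0.72. Many steps were close to none, with 41, 34 and 46 members under 0.05. Each of the 3 steps was at least 0.05 in 56 members and at least 0.1 in 15. In 44 members a single step was at least 2 times the sum of the other two. A rise of at least 0.05 at every step was thus shown by a minority of the members.

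The doses were not evenly spaced, and this changes the order of the steps. The second dose was 30 times the lowest, the third 55.6 times the second and the highest 5 times the third. Divided by the distance between the doses on a log10 scale, the median step was 0.092, 0.059 and 0.12 per log10 unit of dose. By this measure the last step was the steepest in 80 members, the first in 44 and the middle one in 26. The last step was divided by the shortest distance, and the rule ranked members partly by it. The matching shares of all eligible transcripts were not counted, so these counts describe the selection. Fitted over all 4 doses, the slope was 0.018 to 0.41 per log10 unit, with a median of 0.096.

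**Figure D4:**
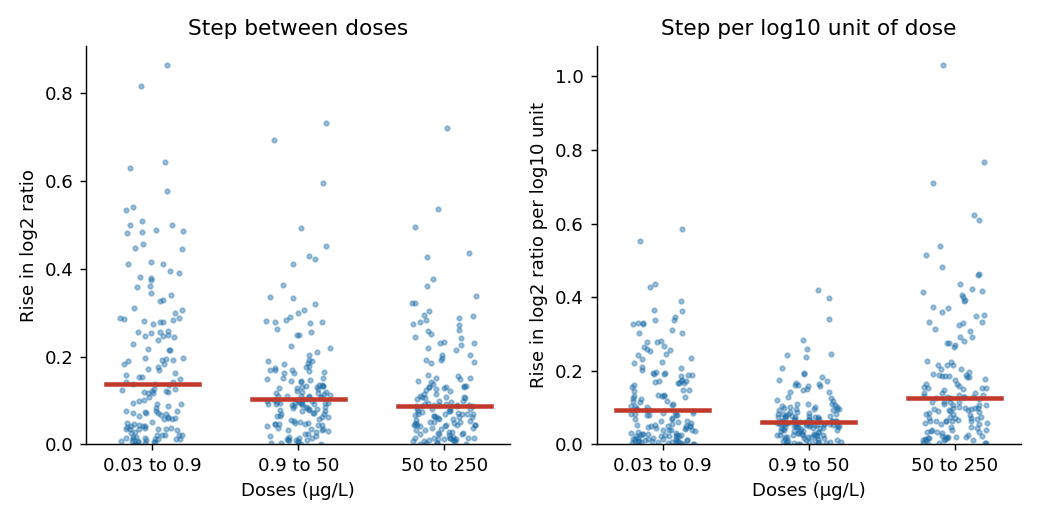
Rise in the log2 ratio between neighbouring doses for the 150 members (points) and their median (red line). The left panel gives the step itself, with medians of 0.14, 0.10 and 0.087, and the right panel the step per log10 unit of dose, with medians of 0.092, 0.059 and 0.12.

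Members were less abundant than the transcripts they were chosen from. Their control mean in the 250 μg/L table was 50.8 to 2140 normalized counts with a median of 117.7, compared with a median of 291.2 over all eligible transcripts. Members made up 63 of the 3593 eligible transcripts with a control mean from 50 to below 100 (1.75%), 55 of 8071 from 100 to below 300 (0.681%) and 32 of 11293 from 300 upwards (0.283%). The spread of the ratios moved in the same direction. The interquartile range of eligible transcripts at the highest dose was 0.31, 0.23 and 0.16 in these classes, and 24.1%, 13.0% and 6.80% of them had a ratio of at least 0.2 there. The rising order itself, at any size, was found for 4.06%, 3.53% and 2.58%. Of the 13 members at 0.6 or more at the highest dose, 7, 5 and 1 were in these classes. The matching shares of eligible transcripts in each class were not counted, so nothing can be read from this split. The part of abundance in the selection was not tested. Among the members, the difference between the highest and the second dose had a Spearman rho of -0.17 and a Pearson r of -0.11 with the log2 control mean (n = 150 transcripts of the same libraries), and a correlation this weak is no finding.

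The 5 most abundant members differed little from control in proportion, which did not hold for all abundant members. The most abundant had authors' means of 2380, 2338, 2480 and 2499 normalized counts in order of dose, and 2140 to 2196 in control. Its mean was lower at the second than at the lowest dose in counts, which the authors scaled separately in each table, while its ratios to the control of the same table were 0.116 at the lowest dose and 0.125 at the second. The next had 1711, 1743, 1894 and 1947, with 1581 to 1622 in control, and was above control at every dose with ratios of 0.078, 0.14, 0.23 and 0.30. The 5 most abundant members had ratios of 0.20 to 0.30 at the highest dose. The members next in abundance had control means of 1362, 1171, 1152 and 1071 in the 250 μg/L table. Their ratios at the highest dose were 0.37, 0.53, 0.25 and 0.52.

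Counting error is 1 part of the error of these values, and it can only be approximated here because depth per library is not known. Treating the normalized counts of 5 libraries as counts, the standard error of the difference between the highest and the second dose was 0.019 to 0.12 for the members, with a median of 0.078. This covers counting error only and leaves out the spread between libraries and the division of reads among isoforms. The difference exceeded 2 of these standard errors in 109 of the 150 members, and it did so upwards in 24.9% of all eligible transcripts. In either direction, 45.8% of all eligible transcripts exceeded it. The rule required this difference to be positive and ranked members by it, so the count of 109 describes the selection. The members' 3 steps exceeded 2 counting standard errors in 72, 53 and 47 of them in order of dose, and all 3 steps did so in 10 members. The rule fixed the direction of each step, and the matching shares of all eligible transcripts were not counted. Nothing about the members can therefore be read from these counts of steps. For ENSDART00000159915.2 the difference of 1.21 had a counting standard error of 0.060, while its first step of 0.077 was close to the counting standard error of that step, 0.071.

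**Figure D5:**
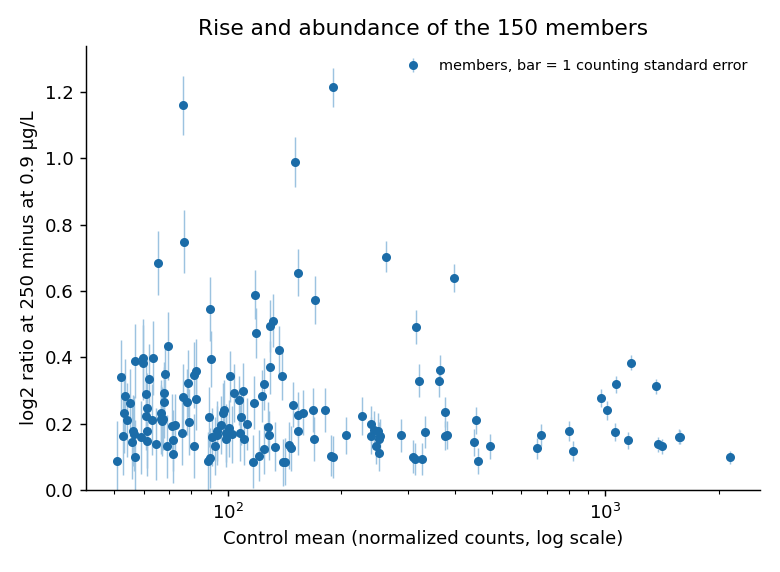
The log2 ratio at 250 minus that at 0.9 μg/L (vertical axis) against the control mean in the 250 μg/L table (horizontal axis, normalized counts, log scale) for the 150 members. Bars are 1 counting standard error, which does not hold the spread between libraries. The 2 largest differences are 1.21 and 1.16, and the median is 0.20.

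The selection changed when the lowest dose was left out of the order. Leaving out another dose was not tried, so the lowest dose cannot be set apart from the others in this. An order over fewer doses can only admit more transcripts. When the order was required of the 3 higher doses only, an alternative chosen after the data were seen, 1169 transcripts qualified in place of 173. The 150 with the largest difference between the highest and the second dose then had a median ratio of 1.12 at the lowest and 0.63 at the highest dose, and 10 of them were among the members described here. Of these 150, 107 were higher at the lowest dose than at the highest. The same held for 60.3% of the 2510 transcripts described above that had 0.2 or more at the highest dose but were not stepwise. The share of all eligible transcripts was not counted. These 150 were chosen by ratios from the same means, so nothing about them can be read from the count of 107.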

How the data were processed

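Per the labels and the study's methods, the authors trimmed reads (Trimmomatic), quantified transcripts with Salmon on the coding and non-coding RNA sequences of GRCz11 from Ensembl, and compared each dose with the same 5 control libraries in DESeq2. How listed transcripts were filtered was not stated there. The deposited group means (normalized counts, never negative) were used as a signal. Depth per library is not known from means, and the group means summed to between 27493493 and 29297114 for citalopram. The fold changes, standard errors and p-values of the authors' comparison were not used, so no test was run.

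Control means of the tables differed by a nearly common scale (median log2 ratio to the 0.03 μg/L table of -0.035, -0.0071 and -0.038). Over eligible transcripts this ratio lay between -0.042 and -0.027, -0.017 and 0.0034, and -0.046 and -0.030 in the same order. The log2 ratios of citalopram to control cancel only the common part, and some members' steps were smaller than these ranges. Groups came from the treatment labels. The rule was to name the first 2 members by ID where no symbol was paired. Members, lists and rule were chosen with earlier results of these data known. Alternatives were a minimum mean of 20 or 100, a pseudocount of 5, centring on the table median, 1 averaged control, ranking from 0.03 μg/L and a minimum ratio of 0.4. The selection was also run on simulated data with counting error only and with steps larger than the members' median steps. That run does not show how the rule performs on steps of the members' size or with spread between libraries. Computation used pandas 2.3.3, numpy 2.4.6, scipy 1.17.1 and Python 3.11.15, and plots matplotlib 3.10.9.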

Additional observations from a re-analysis of the deposited data

How the results depend on the processing

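The number of stepwise transcripts with a ratio of at least 0.2 at 250 μg/L was 173. It stayed within 1.5 times this value with a pseudocount of 5, centred ratios or 1 averaged control. In these settings 144, 126 and 149 of the 150 members were kept. Ranking from 0.03 μg/L kept 136 of the members. This ranking could not change the number of 173, since it came after the stepwise selection. Most members had to be kept, as 150 were taken from the same 173. With a minimum mean of 20 the number was 277 and 77 members were kept. The median ratios were then -0.18, 0.016, 0.19 and 0.35 in order of dose, and 26 members reached 0.6 at 250 μg/L. With a minimum mean of 100 only 94 transcripts qualified, 78 of them members, with a median of -0.019 at 0.03 μg/L, 5 at 0.6 or more and 38 with the first step largest. With a minimum ratio of 0.4 only 36 qualified, with medians of 0.014, 0.19, 0.38 and 0.53, and the first step was largest in 16. With the order required of the 3 higher doses only, 1169 qualified, the 150 with the largest difference had medians of 1.12 at the lowest, -0.14 at the second and 0.63 at the highest dose, 78 reached 0.6 at 250 μg/L and the first step was largest in 2. Medians were compared with the 95% order-statistic interval of the main median. That interval describes the spread among the chosen members and holds no spread between libraries. No paired analysis was possible because the tables hold group means and no values of single libraries, and replicates could not be left out for the same reason.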

Other observations

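The rising order also occurred below the control level. Of the 722 transcripts with ratios increasing over all 4 doses, 549 had a ratio under 0.2 at 250 μg/L. Of these, 413 were above control there by less than 0.2, and 136 were below control at every dose. In the 136 the median log2 ratio was -0.32, -0.16, -0.099 and -0.045 in order of dose. Their means were furthest from control at the lowest dose and nearest to it at the highest, which the choice of the 136 fixed in advance. Their lowest ratio at 0.03 μg/L was -1.32, and 19 of them were at -0.6 or lower there. The matching share of all eligible transcripts was not counted, so nothing about the 136 can be read from this count. These values come from the same group means and were not tested.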
